A study of Mus musculus with 25 samples.

Results

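A set of 10 genes of the JAK-STAT pathway were followed in neutrophils from mouse bone marrow: the Janus kinases Jak1, Jak2, Jak3 and Tyk2, the transcription factors Stat3, Stat5a and Stat5b, and the inhibitors Socs1, Socs3 and Cish. They were chosen by name, for their place in the pathway, with earlier results of these data known. They are 10 of the 35741 genes in the deposited table. All 10 passed the filter on low counts, which left 16206 genes for testing. The study asked how Ptpn6, the phosphatase also called SHP-1, restrains inflammation that runs through caspase-8 or through Ripk3 and Mlkl. Bulk messenger RNA was sequenced as 100 bp paired reads in 25 libraries from female C57BL/6J mice aged 6 to 13 weeks, from cells taken between 68% and 78% Percoll.

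The groups without Ptpn6 deletion were wild type (3 libraries), Ripk3-/- (3), Mlkl-/- (3) and Ripk3-/- Mlkl-/- (2). Those with Ptpn6 deletion, written ΔPMN in the labels, were Ripk3-/- Ptpn6ΔPMN (3), Mlkl-/- Ptpn6ΔPMN (2) and Ripk3-/- Mlkl-/- Ptpn6ΔPMN (3). Groups with Casp8 deleted as well were Casp8ΔPMN Mlkl-/- Ptpn6ΔPMN (2), Ripk3-/- Mlkl-/- Casp8ΔPMN Ptpn6ΔPMN (2) and Casp8ΔPMN Ptpn6ΔPMN (1), and only that single library was labelled as inflamed. One further library entered no group, because its title follows the naming of the Ripk3-/- Mlkl-/- libraries while its genotype label reads Mlkl-/- Ptpn6ΔPMN. Every group with Ptpn6 deletion therefore also lacked Ripk3, Mlkl or Casp8, and no group had Ptpn6 deletion alone. The Cre driver is not given in the sources used here, no group carried a deletion driver with Ptpn6 intact, and an effect of the driver cannot be told apart from that of Ptpn6 loss. The labels do not say whether replicates were separate mice. The tests therefore set differences against the spread between these libraries, which may not be the spread between mice.

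Cytokine receptors without kinase activity of their own hold Janus kinases on their cytoplasmic tails. When a ligand joins the receptor chains, the kinases phosphorylate each other and the receptor, STAT proteins dock, are phosphorylated, pair up and enter the nucleus, and among the genes they switch on are the SOCS inhibitors that close the loop. In neutrophils the granulocyte colony-stimulating factor receptor signals through this route to Stat3, with Socs3 as its main brake, and receptors of the granulocyte-macrophage colony-stimulating factor family use Jak2 and Stat5. Ptpn6 is a phosphatase known to remove phosphate from receptors and Janus kinases in blood cells. The libraries measure messenger RNA, not phosphorylation.

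Sequences around the RefSeq starts of 4 genes are shown, because Jak3 was the gene that changed and the others hold a letter pattern known from STAT binding. They are from RefSeq on GRCm38.p6, 5′ to 3′ on the gene's strand, and capitals mark matches.
Jak3, chr8:71676133-71676382, plus strand: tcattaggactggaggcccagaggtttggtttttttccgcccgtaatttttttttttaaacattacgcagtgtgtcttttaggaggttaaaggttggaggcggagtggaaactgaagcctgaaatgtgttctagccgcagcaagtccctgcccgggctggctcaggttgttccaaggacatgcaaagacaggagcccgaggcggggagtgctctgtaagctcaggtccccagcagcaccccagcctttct
Socs3, chr11:117969367-117969616, minus strand: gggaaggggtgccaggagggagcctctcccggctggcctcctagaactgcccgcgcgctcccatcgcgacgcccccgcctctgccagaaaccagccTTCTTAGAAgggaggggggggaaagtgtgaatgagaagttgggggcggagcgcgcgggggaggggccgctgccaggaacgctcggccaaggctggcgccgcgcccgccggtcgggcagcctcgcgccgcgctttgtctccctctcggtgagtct
Cish, chr9:107296479-107296678, plus strand: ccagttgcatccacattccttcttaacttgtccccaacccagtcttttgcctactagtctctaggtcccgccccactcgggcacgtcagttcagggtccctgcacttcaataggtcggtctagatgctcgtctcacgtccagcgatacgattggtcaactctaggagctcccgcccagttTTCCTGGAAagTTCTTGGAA
Socs1, chr16:10785537-10785686, minus strand: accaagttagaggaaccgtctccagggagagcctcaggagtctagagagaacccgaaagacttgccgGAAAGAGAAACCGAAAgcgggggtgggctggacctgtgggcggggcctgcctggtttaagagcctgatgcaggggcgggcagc

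Windows of 300 bp, from 250 bases before to 50 after each RefSeq start, were searched on both strands. The starts depend on the gene model. In GENCODE M21 the Socs3 gene runs from 117970047 on the minus strand and the Cish gene from 107296026 on the plus strand, so the stretches shown for these 2 lie inside the GENCODE genes. The GENCODE start of Jak3, 71676296, falls within the stretch shown, and that of Socs1, 10785536, adjoins it. The pattern TTCNNNGAA, the palindrome that STAT dimers recognise, was in 8.3% of 32851 windows and in those of 2 of the 10 genes. Cish held it 2 times, from base 1 and base 12 of the RefSeq transcript, and Socs3 held it once, from 154 bases before the RefSeq start. GAAA, any 2 bases and GAAA again, the core of the element that interferon-activated STAT complexes recognise, was in 3.44% of windows. Of the 10 genes only Socs1 had it, as 2 overlapping matches from 83 and 77 bases before the RefSeq start. No match of either pattern overlapped a match of the other. The Jak3 window held neither, which says only that these letters are not there.

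The label checks and depth applied to the whole series. Totals were 21598063 to 23187557 estimated counts a library. Ptpn6 was at 490 to 707 CPM (counts scaled to library size) in the 11 libraries without its deletion and at 120 to 314 CPM in the 13 with it. Ripk3 was at 0 to 0.154 CPM in the libraries labelled Ripk3-/- and at 2.51 to 10.5 CPM in the others. Mlkl (0.230 to 1.64 against 1.40 to 4.85 CPM) and Casp8 (16.3 to 23.5 against 21.2 to 37.9 CPM) were lower where deleted, with overlapping ranges. Neutrophil genes were abundant, with S100a9 at 17465 to 40936 CPM in the 24 grouped libraries, while Elane, a granule gene of earlier precursors, was at 1.36 to 44.4 CPM. Marker genes of other cells were present at lower levels. The summed B cell list ranged from 617 to 1359 CPM (median 1000.4) without deletion and from 417 to 1873 CPM (median 570) with it. The summed neutrophil list ranged from 74909 to 110241 CPM (median 94033) without deletion and from 65971 to 153845 CPM (median 123873) with it. In bulk RNA, fewer cells of a type and less RNA per cell cannot be told apart.

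In wild-type neutrophils the pathway was unevenly expressed. Per kilobase of the principal transcript, Jak1 stood highest among the kinases at 111 ± 6.60 CPM per kb (SD, n = 3), followed by Jak2 at 22.7 ± 0.913, Jak3 at 11.6 ± 1.83 and Tyk2 at 10.2 ± 1.28. Jak1 serves most cytokine receptor families, and Jak3 serves the receptors that contain the common gamma chain. Ranges of Jak3 and Tyk2 overlapped, so their order is not resolved. Stat3 was at 71.9 ± 6.50 CPM per kb, Stat5b at 50.5 and Stat5a at 8.93 ± 0.0886. Socs3 was at 29.0 CPM per kb against 4.20 for Cish and 3.89 for Socs1. With merged exons as the length, Stat3 and Stat5b changed places, as did Cish and Socs1, so those 2 orders depend on the gene model.

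Jak3 was the 1 gene of the 10 that passed the test for Ptpn6 deletion, in the average and in Mlkl-/-, and it rose. That the others did not pass does not show that they did not change. The gene lies at chr8:71676296-71690575 on the plus strand (GRCm38, GENCODE M21), with 25 exons in its principal transcript. In wild type the 3 libraries read 53.4, 47.6 and 38.8 CPM. Ripk3-/- libraries read 47.4, 50.9 and 48.7 CPM, Mlkl-/- libraries 50.0, 48.8 and 57.7 CPM, and Ripk3-/- Mlkl-/- libraries 43.4 and 52.0 CPM. With Ptpn6 deleted, Ripk3-/- libraries read 59.2, 115 and 80.9 CPM. Mlkl-/- Ptpn6ΔPMN was highest of the groups, at 113 and 164 CPM, and Ripk3-/- Mlkl-/- Ptpn6ΔPMN lowest of those with deletion, at 52.1, 58.0 and 72.6 CPM. In all, 12 of the 13 libraries with deletion lay above all 11 without it. For this count and the like counts below, the share over all genes was not computed. In each of the 3 backgrounds the libraries with and without deletion did not overlap, although in Ripk3-/- Mlkl-/- the nearest pair was 52.0 and 52.1 CPM.

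Averaged over the 3 backgrounds, Jak3 rose by 0.85 on the log2 scale (SE 0.12, edgeR quasi-likelihood adjusted p = 0.00414), a 1.80-fold difference. Of all genes tested, 1.55% passed in that average, 0.753% in the upward direction. Within Mlkl-/- the change was 1.41 (SE 0.21, edgeR adjusted p = 0.00814), or 2.65-fold, where 1.51% of genes passed. Within Ripk3-/- it was 0.80 (SE 0.19, edgeR adjusted p = 0.262), where 0.0185% passed, and within Ripk3-/- Mlkl-/- 0.35 (SE 0.22, edgeR adjusted p = 0.846), where 0.00617% passed. Neither of these 2 passed the test. Libraries did not overlap in either direction for 9.20% of genes in Ripk3-/-, 35.7% in Mlkl-/- and 13.4% in Ripk3-/- Mlkl-/-. The averaged rise passed in every alternative run, with log2 changes from 0.71 to 0.93.

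**Figure D1:**
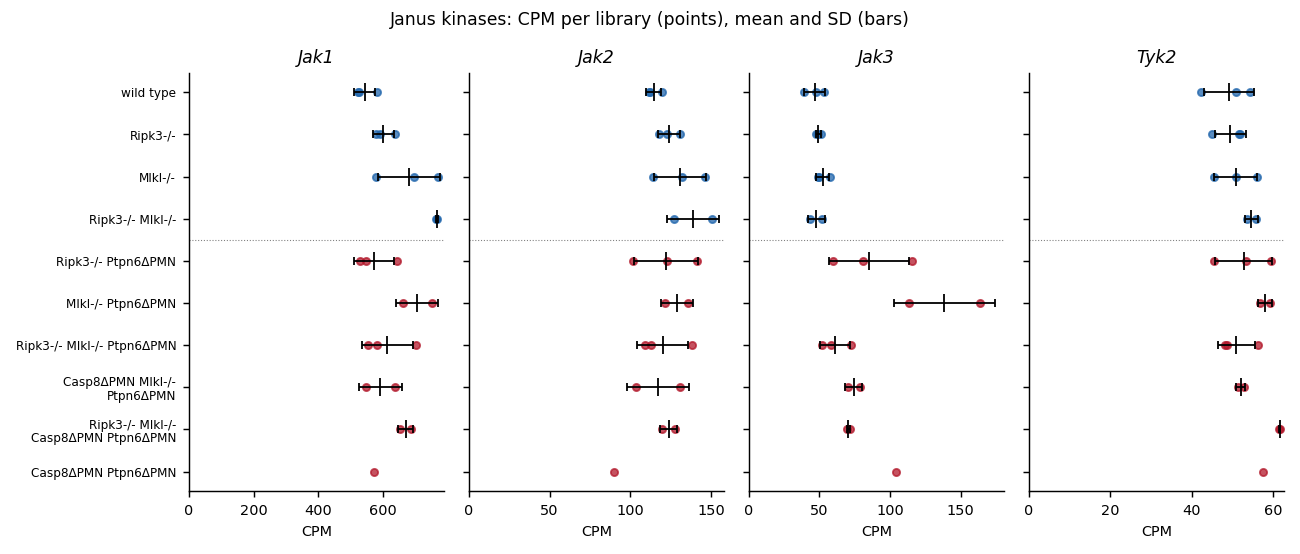
CPM of the 4 Janus kinases (x axis) in the 10 groups (y axis). Points are libraries, blue without and red with Ptpn6 deletion, and bars give mean and SD where a group has more than 1 library. Jak3 in Mlkl-/- Ptpn6ΔPMN stands at 113 and 164 CPM, while the 11 libraries without deletion lie between 38.8 and 57.7 CPM; the other 3 kinases overlap between the colours.

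Single libraries decided the calls within backgrounds. The Mlkl-/- call was lost without Mlkl-/- replicate 2 (log2 change 1.36, edgeR adjusted p = 0.0822) and without Mlkl-/- Ptpn6ΔPMN replicate 2 (1.12, edgeR adjusted p = 0.403). Jak3 passed in Ripk3-/- once Ripk3-/- Ptpn6ΔPMN replicate 1 was left out (1.00, edgeR adjusted p = 0.0104), and without replicate 2 the change there was 0.52 (edgeR adjusted p = 0.998). The size of the change was compared between backgrounds directly, and the difference did not pass (edgeR adjusted p = 0.722, 0% of genes passed).

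Other quantities moved with Jak3 and are given beside it. Insl3, which encodes a peptide hormone of the testis, lies inside the 3′ end of Jak3 on the same strand over 1362 bp, and 9.38% of the 31-base words of the Jak3 transcript also occur in it. Insl3 was at 1.77 to 4.42 CPM without deletion, and 8 of the 13 libraries with deletion exceeded that range. With the counts of both genes added together the averaged change was 0.86 (SE 0.12, edgeR adjusted p = 0.00428). The 3 libraries with deletion that were lowest in Jak3 (52.1, 58.0 and 59.2 CPM) also had the 3 lowest sums of neutrophil markers (67289, 89637 and 65971 CPM). The order did not hold throughout. Casp8ΔPMN Mlkl-/- Ptpn6ΔPMN had Jak3 at 70.0 and 78.6 CPM with marker sums of 145636 and 144640 CPM, and Ripk3-/- Ptpn6ΔPMN replicate 3 had 80.9 CPM with 91954 CPM. The part of the neutrophil markers in the result was not tested. With mean B cell marker level as a covariate, the averaged Jak3 change was 0.80 (SE 0.11, edgeR adjusted p = 0.0028) and that in Mlkl-/- 1.26 (SE 0.20, adjusted p = 0.0110). Of the 12 macrophage markers, 1 had an averaged change above 0 and 2 passed in edgeR, both lower with deletion. The list's median log2 change was -1.17, and the part of these markers in the Jak3 result was not tested.

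Several marker lists also differed in Mlkl-/-, beside every change with Ptpn6 deletion given for that background. Without and with deletion, summed neutrophil markers were at 89454 to 104505 and 138141 to 153845 CPM. Monocyte markers were at 969 to 1083 and 1430 to 1504 CPM, and basophil and mast cell markers at 1000 to 1588 and 2201 to 2291 CPM. B cell markers were at 617 to 977 and 417 to 463 CPM. None of these sums overlapped. Macrophage sums did overlap, at 613 to 1005 and 690 to 850 CPM. By gene, 9 of 9 basophil and mast cell markers and 14 of 15 neutrophil markers had a change above 0. The same held for 0 of 13 T and NK cell markers, 1 of 12 B cell markers and 2 of 12 macrophage markers (median -1.20). None of the markers in these lists passed in edgeR. Because the B cell sums did not overlap here, the B cell covariate cannot separate their part from that of deletion. The part of these lists in the Mlkl-/- results was not tested.

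Jak1, Jak2 and Tyk2 did not pass in any comparison of the main fit. Jak1, the kinase shared by the interferon, interleukin-6 and common gamma chain receptors, ranged from 522 to 767 CPM without Ptpn6 deletion and from 527 to 750 CPM with it. Averaged over backgrounds its log2 change was -0.11 (SE 0.08). In Ripk3-/- Mlkl-/- the Jak1 libraries read 763 and 767 CPM, and 554, 582 and 702 CPM with deletion, lower without overlap. That change was -0.32 (SE 0.14, edgeR adjusted p = 0.846), in a background where 13.4% of all genes did not overlap in either direction. Jak2, which serves the growth factor and colony-stimulating factor receptors, ranged from 112 to 150 CPM without and from 90.2 to 141 CPM with deletion, and 4 libraries with deletion lay below all without it. Its averaged change was -0.09 (SE 0.08). Tyk2, a partner kinase of the interferon and interleukin-12 families, ranged from 42.2 to 55.9 CPM without and from 45.4 to 61.7 CPM with deletion. Of the 13 libraries, 7 with deletion exceeded the range without, but the averaged Tyk2 change was 0.06 (SE 0.07). Tyk2 shares its locus with the antisense gene 1700084C06Rik, and whether the counting used strand is not given in the sources used here.

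Of the 3 STAT genes among the 10, Stat3 had the largest averaged difference, without passing. Stat3 transmits granulocyte colony-stimulating factor and interleukin-6 signals. The Mlkl-/- libraries read 388, 420 and 493 CPM and the Mlkl-/- Ptpn6ΔPMN libraries 651 and 647 CPM, with no overlap. The log2 change was 0.58 (SE 0.17, edgeR adjusted p = 0.0838). It passed by DESeq2 (adjusted p = 0.0333). In Ripk3-/- the libraries read 354, 350 and 389 CPM against 360, 563 and 399 CPM with deletion, which overlap. Their Stat3 change was 0.27 (SE 0.15). In Ripk3-/- Mlkl-/- the change was -0.07 (SE 0.17), and the average was 0.26 (SE 0.10, edgeR adjusted p = 0.178). The direct test of a difference between backgrounds gave an adjusted p of 0.764 for Stat3 in edgeR.

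Stat5a and Stat5b, near-identical factors of the colony-stimulating factor and interleukin-2 families, did not pass in any comparison of the main fit. Stat5b was at 248 to 372 CPM without and 262 to 375 CPM with Ptpn6 deletion, with an averaged log2 change of -0.03 (SE 0.09). Stat5a was at 32.1 to 37.2 CPM without and 28.0 to 44.1 CPM with deletion, with an averaged change of -0.09 (SE 0.06). Of the 13 libraries with deletion, 5 lay below all 11 without it in Stat5a and 1 above. In Ripk3-/- the Stat5a libraries did not overlap, at 35.3, 34.5 and 37.2 CPM against 31.6, 30.4 and 33.8 CPM, yet the change of -0.16 (SE 0.10) did not pass in edgeR. The transcripts share sequence: 21.7% of the 31-base words of Stat5a occur in Stat5b and 16.1% of those of Stat5b in Stat5a, so how reads were divided between them is uncertain. Stat5a also overlaps the tail of Stat3 over 72 bp.

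The SOCS genes Socs3 and Cish were higher in some libraries with Ptpn6 deletion and not in others. Socs3, the inhibitor that binds the granulocyte colony-stimulating factor and interleukin-6 receptors, read 77.8, 118 and 105 CPM in Ripk3-/- and 95.2, 338 and 97.7 CPM in Ripk3-/- Ptpn6ΔPMN. One library of the 3 stood apart there. In Mlkl-/- it read 101, 134 and 143 CPM, against 245 and 179 CPM with deletion, with no overlap. Ripk3-/- Mlkl-/- libraries read 106 and 81.0 CPM and their Ptpn6ΔPMN counterparts 98.5, 75.3 and 197 CPM. The log2 changes of Socs3 were 0.82 (SE 0.44), 0.75 (SE 0.48) and 0.40 (SE 0.49) in the 3 backgrounds in that order. Their average was 0.66 (SE 0.27, edgeR adjusted p = 0.237). Without Ripk3-/- Ptpn6ΔPMN replicate 2 the Socs3 change in Ripk3-/- was -0.05 (SE 0.37), and with the B cell covariate it was 0.46 (SE 0.33).

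Cish, an inhibitor induced by Stat5 that acts on the same receptor families, read 9.43, 9.49 and 10.7 CPM in Mlkl-/- and 19.1 and 20.1 CPM in Mlkl-/- Ptpn6ΔPMN, with no overlap. The Cish change there was 0.99 (log2, SE 0.33, edgeR adjusted p = 0.121). It passed with only the compared libraries in the edgeR fit (adjusted p = 0.0198). In Ripk3-/- the Cish libraries read 11.6, 10.4 and 11.5 CPM and with deletion 7.57, 20.8 and 11.2 CPM, so both the lowest and the highest were among those with deletion. The averaged Cish change was 0.53 (SE 0.19, edgeR adjusted p = 0.149), and it passed without Ripk3-/- Ptpn6ΔPMN replicate 1 (0.63, adjusted p = 0.0300). Of the 31-base words of the Cish transcript, 15.0% also occur in the antisense gene Gm17041. Socs1, the brake on interferon signalling, ranged from 7.58 to 13.6 CPM without and from 7.0 to 13.1 CPM with deletion, and its averaged change was 0.04 (SE 0.13).

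**Figure D2:**
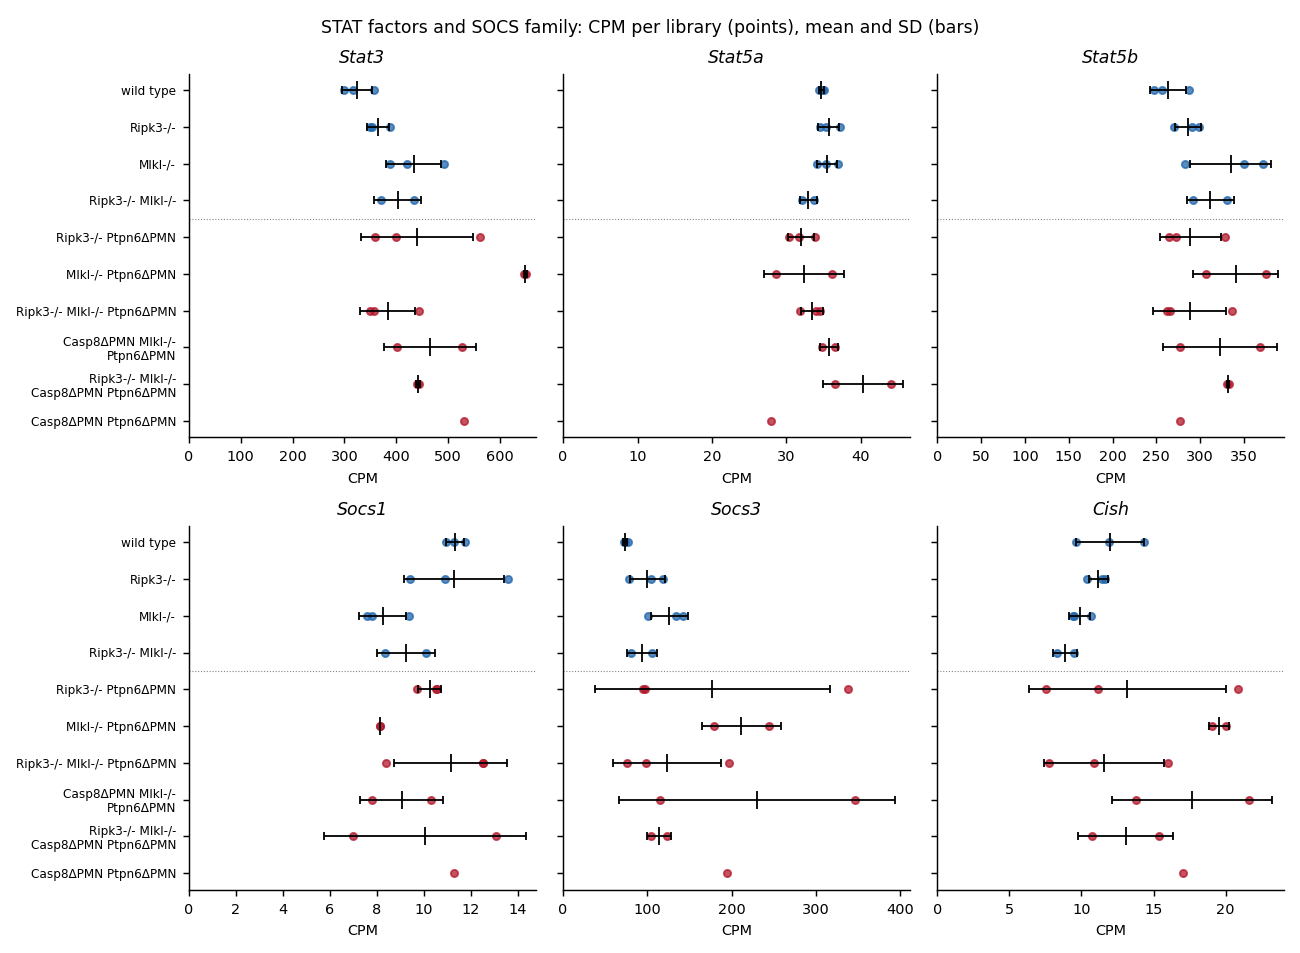
CPM of the 3 STAT factors and 3 SOCS family genes (x axes) in the 10 groups (y axis), drawn as points per library with mean and SD, blue without and red with Ptpn6 deletion. Stat3 in Mlkl-/- Ptpn6ΔPMN stands at 651 and 647 CPM, and Socs3 spreads from 95.2 to 338 CPM within Ripk3-/- Ptpn6ΔPMN.

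Counted together, 1 of the 10 genes passed in Mlkl-/- and in the average, and 0 in Ripk3-/- and in Ripk3-/- Mlkl-/-, all by edgeR. Of the 10, 6 had an averaged change above 0, and the median over the 10 was 0.05, while 50.2% of all genes tested were above 0. Libraries did not overlap for 2 of the 10 in Ripk3-/- (9.20% of all genes), 5 in Mlkl-/- (35.7%) and 2 in Ripk3-/- Mlkl-/- (13.4%). The 5 in Mlkl-/-, all higher with deletion, were Jak3, Tyk2, Stat3, Socs3 and Cish, where 17.6% of all genes were higher without overlap.

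**Figure D3:**
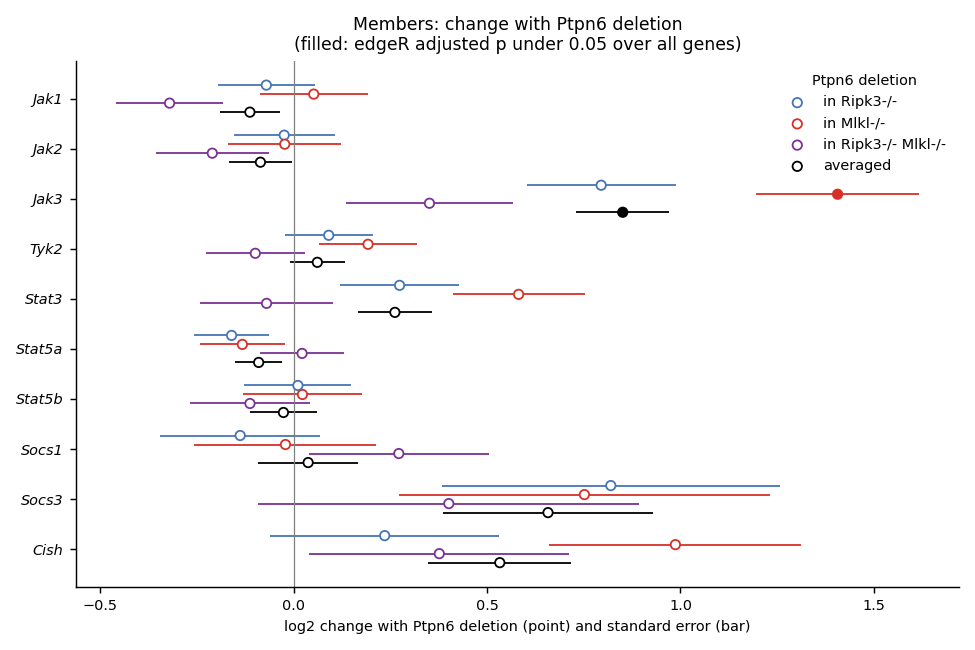
Log2 change with Ptpn6 deletion (x axis, bars are standard errors) for the 10 genes (y axis) in each background and averaged; filled points have an edgeR adjusted p under 0.05. The filled points are Jak3 in Mlkl-/- (1.41) and Jak3 averaged (0.85).

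The same libraries were high in several of these genes. Ripk3-/- Ptpn6ΔPMN replicate 2 held the highest value of its group in Jak3 (115 CPM), Stat3 (563 CPM), Socs3 (338 CPM) and Cish (20.8 CPM). Ripk3-/- Mlkl-/- Ptpn6ΔPMN replicate 3 did so for Jak3 (72.6 CPM), Stat3 (445 CPM), Socs3 (197 CPM) and Cish (16.0 CPM). Those 2 libraries also had the most summed neutrophil markers of their groups, at 128385 and 123873 CPM, and the fewest B cell markers, at 653 and 421 CPM. The part of cell composition in this was not tested. Across the 23 libraries of the fit, log2 CPM of Stat3 and Socs3 had a Pearson r of 0.84 and Jak3 and Stat3 one of 0.82, while Jak1 and Jak3 had 0.21. These are descriptions over libraries that share genotype and scaling.

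Patterns most like these across all genes were found by the same measure over 23 libraries. Jak3 was closest to Fam20c (r = 0.953), Ambp (0.952) and C4b (0.948). Stat3 was closest to Mtus1 (0.955), Clec4e (0.953) and Tbc1d14 (0.953), and Socs3 to Sbno2 (0.950), Myd88 (0.927) and Fam122a (0.926). For Cish they were Reck (0.931), Rabif (0.914) and Slc31a2 (0.904). For Jak1 the nearest was Nedd9 (0.945), for Stat5b Akt1 (0.956), for Jak2 Yme1l1 (0.916), for Socs1 Syvn1 (0.858), for Tyk2 Heatr5a (0.800) and for Stat5a Card10 (0.723).

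Deletion of Casp8 in addition to Ptpn6 changed none of the 10 genes past the test in edgeR, and 0% of all genes passed in either background. Across all genes, 1515 had an unadjusted p under 0.05 in Mlkl-/- Ptpn6ΔPMN and 750 in Ripk3-/- Mlkl-/- Ptpn6ΔPMN. Jak3 read 70.0 and 78.6 CPM in Casp8ΔPMN Mlkl-/- Ptpn6ΔPMN, below both Mlkl-/- Ptpn6ΔPMN libraries (113 and 164 CPM). The log2 change was -0.90 (SE 0.24, edgeR adjusted p = 0.258), and it passed by DESeq2 (adjusted p = 0.0388). In Ripk3-/- Mlkl-/- Casp8ΔPMN Ptpn6ΔPMN the Jak3 libraries read 71.3 and 69.5 CPM, inside the span of those with Casp8 intact, with a change of 0.21 (SE 0.21). The 2 changes differed by 1.11 (SE 0.32, edgeR adjusted p = 0.387). Both use Ptpn6-deleted groups that also enter the Ptpn6 comparisons. Without and with Casp8 deletion in Mlkl-/- Ptpn6ΔPMN, monocyte marker sums were 1430 to 1504 and 1156 to 1243 CPM. Erythroid sums were 4291 to 6725 and 775 to 3478 CPM, and basophil and mast cell sums 2201 to 2291 and 1663 to 1760 CPM. None of these overlapped, while neutrophil sums did. By gene, 0 of 11 monocyte, 0 of 13 erythroid and 8 of 9 basophil and mast cell markers were above 0. The basophil and mast cell sum was thus lower while most genes of that list were higher (median 0.45), so the sum did not stand for the list. Their part in the Casp8 results was not tested.

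In the Mlkl-/- Casp8 comparison 4 of the 10 genes (Jak1, Jak3, Tyk2 and Stat3) were lower without overlap, as were 19.5% of all genes, and 41.0% did not overlap in either direction. Stat3 read 527 and 402 CPM against 651 and 647 CPM, which is -0.48 in log2 terms (SE 0.19, edgeR adjusted p = 0.450). Socs3 read 346 and 115 CPM, a spread wider than the group it was compared with (245 and 179 CPM), and its change was 0.12 (SE 0.53). In the Ripk3-/- Mlkl-/- comparison, Tyk2 and Stat5a were higher without overlap, as were 7.74% of all genes, and 14.8% did not overlap in either direction. Tyk2 there read 61.5 and 61.7 CPM against 48.7, 56.2 and 48.1 CPM, which is 0.27 in log2 terms (SE 0.13, edgeR adjusted p = 0.864).

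Loss of Ripk3, Mlkl or both with Ptpn6 intact changed none of the 10 genes past the test in edgeR. The share of all genes that passed was 0.228% for Ripk3-/-, 1.16% for Mlkl-/- and 1.04% for Ripk3-/- Mlkl-/-, and all 3 comparisons share the wild-type libraries. Jak1 came nearest, at 526, 580 and 522 CPM in wild type and 763 and 767 CPM in Ripk3-/- Mlkl-/-, which do not overlap. Its log2 change was 0.50 (SE 0.14, edgeR adjusted p = 0.0960). Jak1 passed by DESeq2 (adjusted p = 0.0221), with only the compared libraries (edgeR adjusted p = 0.0464) and with the B cell covariate (edgeR adjusted p = 0.0229). In the same comparison all 12 macrophage markers had a change above 0 (median 0.72, 2 passed), with sums of 523 to 565 CPM in wild type and 746 to 844 CPM in Ripk3-/- Mlkl-/-. All 13 erythroid markers tested were above 0 (median 0.91), and 1 of 9 basophil and mast cell markers was (median -1.75, 2 passed). Their part in the Jak1 difference was not tested. Socs3 was lowest in wild type, at 76.6, 73.2 and 72.0 CPM, below all 8 other libraries with Ptpn6 intact. Its change in Mlkl-/- was 0.76 (SE 0.44, edgeR adjusted p = 0.338), and it passed with only the compared libraries (0.77, edgeR adjusted p = 0.0134). Libraries did not overlap for 1 of the 10 genes in Ripk3-/- against wild type (19.3% of all genes), 3 in Mlkl-/- (31.3%) and 8 in Ripk3-/- Mlkl-/- (40.2%), where only 2 libraries were set against 3.

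Beyond the 10, the pathway was read from 84 further genes by role. Receptors gave 2 rises of 23 tested in the average and no fall, with a median log2 change of 0.02; of all genes, 1.55% passed, 0.753% upward. Csf2rb2, the interleukin-3 form of the common beta chain, was at 92.1 to 141 CPM without Ptpn6 deletion and exceeded that in 10 of 13 libraries with it. It rose by 0.91 on average (SE 0.18, edgeR adjusted p = 0.0188) and by 1.56 in Mlkl-/- (SE 0.31, adjusted p = 0.0269), where 1.51% of all genes passed. Its near-identical partner Csf2rb had an averaged change of 0.56 (SE 0.15, adjusted p = 0.0606), and reads could be divided between them. The averaged Csf2rb2 call was lost with only the compared libraries (edgeR adjusted p = 0.0718), without Mlkl-/- Ptpn6ΔPMN replicate 2 (0.118) and without Ripk3-/- Mlkl-/- replicate 3 (0.0585). Its Mlkl-/- call was lost without any 1 of Mlkl-/- replicates 1, 2 and 3 and without Mlkl-/- Ptpn6ΔPMN replicate 2 (edgeR adjusted p = 0.0702 to 0.448). Csf3r, the granulocyte colony-stimulating factor receptor, was at -0.17 (SE 0.12).

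Il4ra, a chain of the interleukin-4 receptor that is itself listed among STAT targets, was at 166 to 318 CPM without deletion. It was above that in 7 of 13 libraries with it. It rose by 0.72 on average (SE 0.17, edgeR adjusted p = 0.0382), where 1.55% of all genes passed. That call was lost with only the compared libraries (edgeR adjusted p = 0.115). It was also lost without any 1 of Ripk3-/- replicates 1, 2 and 3, Mlkl-/- replicates 1, 2 and 3, Ripk3-/- Mlkl-/- replicates 2 and 3, Mlkl-/- Ptpn6ΔPMN replicate 2 and Ripk3-/- Mlkl-/- Ptpn6ΔPMN replicates 2 and 3 (edgeR adjusted p = 0.0516 to 0.193). Il4ra was the 1 gene of 22 STAT3 and STAT5 targets that passed, and the median of those targets was 0.08. Pim1, a survival kinase among them, was at 0.47 (SE 0.19, adjusted p = 0.228) and Hif1a at 0.45 (SE 0.15, adjusted p = 0.119). None of 7 ligands tested of 15 passed, and their median was 0.24; Il27 had the smallest p (0.44, SE 0.17, edgeR adjusted p = 0.202).

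Among inhibitors and adaptors, Sh2b2 was the 1 gene of 14 that passed, and it fell. Sh2b2 encodes an adaptor that binds Jak2 and other tyrosine kinases. It was at 17.6 to 38.8 CPM in the 11 libraries without Ptpn6 deletion and below that range in all 13 with it. Here too, an effect of the deletion driver cannot be told apart from that of Ptpn6 loss. Its log2 change was -1.50 on average (SE 0.15, edgeR adjusted p = 2.09e-05), -1.86 in Ripk3-/- (SE 0.23, adjusted p = 0.00121), -1.45 in Mlkl-/- (SE 0.27, adjusted p = 0.0236) and -1.19 in Ripk3-/- Mlkl-/- (SE 0.25, adjusted p = 0.507). Of all genes, 1.55% passed in the average, 0.0185% in Ripk3-/-, 1.51% in Mlkl-/- and 0.00617% in Ripk3-/- Mlkl-/-. The Ripk3-/- call of Sh2b2 was lost with only the compared libraries (edgeR adjusted p = 0.200). The Mlkl-/- call was lost without any 1 of Mlkl-/- replicates 1, 2 and 3 and without Mlkl-/- Ptpn6ΔPMN replicate 2 (adjusted p = 0.0572 to 0.448). Sh2b2 passed in Ripk3-/- Mlkl-/- by DESeq2 (adjusted p = 0.0284) and without Ripk3-/- Mlkl-/- replicate 3 (edgeR adjusted p = 0.0344).

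The other STAT factors gave 1 call, in Mlkl-/-. Stat2, a factor of type I interferon signalling, read 71.4, 68.9 and 71.6 CPM there and 105 and 163 CPM with Ptpn6 deletion. It rose by 0.92 (SE 0.17, edgeR adjusted p = 0.0236), and on average its change was 0.30 (SE 0.10, adjusted p = 0.113). Of all genes, 1.51% passed in Mlkl-/- and 1.55% in the average. The Mlkl-/- call was lost without any 1 of Mlkl-/- replicates 1, 2 and 3 and without Mlkl-/- Ptpn6ΔPMN replicate 2 (edgeR adjusted p = 0.0570 to 0.448), where the change was 0.57 without the last. The averaged Stat2 change passed without Mlkl-/- Ptpn6ΔPMN replicate 1 (0.40, edgeR adjusted p = 0.0262). Stat4 had the smallest p of these factors in Ripk3-/- (-0.32, SE 0.18, edgeR adjusted p = 0.999) and Stat6 in Ripk3-/- Mlkl-/- (-0.28, SE 0.13, adjusted p = 0.846). Among the 5 remaining SOCS genes none passed, and Socs5 had the smallest p, with a change of -1.36 in Mlkl-/- (SE 0.34, edgeR adjusted p = 0.0503). In Ripk3-/- it was Socs6 (0.40, SE 0.20) and in Ripk3-/- Mlkl-/- Socs2 (0.15, SE 0.27). Elsewhere the smallest p of a list belonged to the ligand Il4 in Ripk3-/- (-1.33, SE 0.45, edgeR adjusted p = 0.701) and in Ripk3-/- Mlkl-/- (1.03, SE 0.56, adjusted p = 0.846), at no more than 0.727 CPM without deletion. In Ripk3-/- Mlkl-/- it belonged among receptors to Il6ra (-0.51, SE 0.19, edgeR adjusted p = 0.846) and among targets to Ccnd1 (-0.80, SE 0.35, adjusted p = 0.846).

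**Figure D4:**
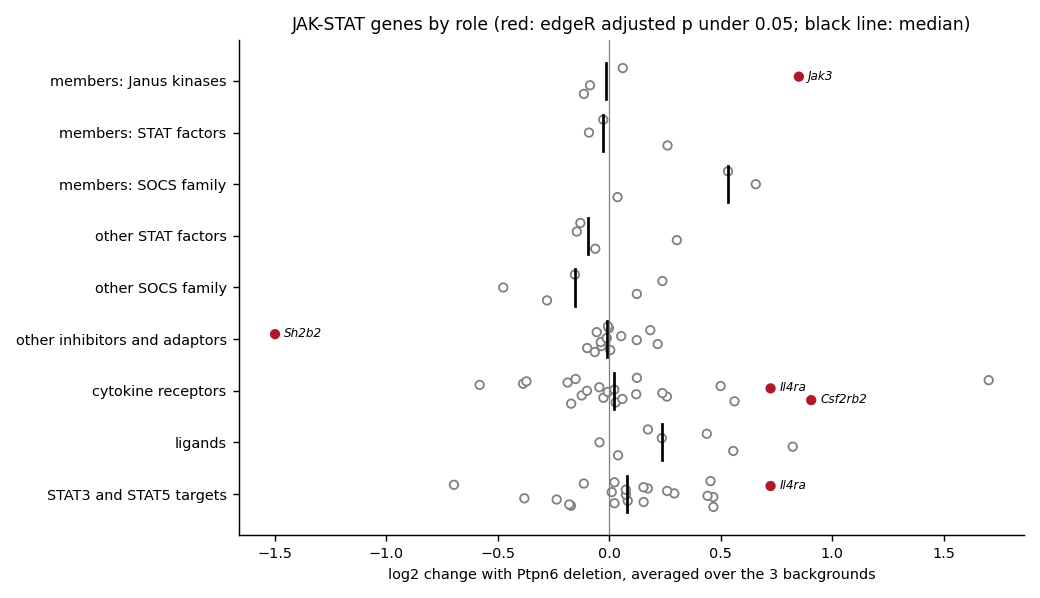
Log2 change with Ptpn6 deletion averaged over the 3 backgrounds (x axis) for each gene tested, in rows by role (y axis); the black line is the row's median and red points have an edgeR adjusted p under 0.05. Red points are Jak3, Sh2b2, Csf2rb2 and Il4ra, the last drawn in both the receptor and the target rows, and Sh2b2 is the one on the left at -1.50.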

How the data were processed

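The authors deposited estimated counts per gene (expected counts, not scaled to depth or length) for 25 libraries. The submitters' processing notes name Salmon 0.14.1, GRCm38.p6 and DESeq2, and the route from transcripts to genes is not given in the sources used here. Counts were rounded to whole numbers.

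Groups came from the genotype labels. One edgeR 4.0.16 model (R 4.3.3) held the 23 libraries of the 9 groups with 2 or more libraries, with TMM scaling, 14 residual degrees of freedom and quasi-likelihood F tests. Low genes were removed by filterByExpr at a count of 10 and a total of 15. A gene passed at a Benjamini-Hochberg adjusted p under 0.05 over 16206 genes. CPM used TMM scaling over all 25 libraries, and log2 CPM for patterns a pseudocount of 1 CPM. The library with conflicting labels and the 1-library group entered no test. The 10 genes and all lists were chosen with earlier results of these data known. The text names the 10 genes in every comparison and, of other pathway genes, those that passed or had the smallest p of their list; Csf2rb, Csf3r, Pim1, Hif1a and Insl3 were named beside them after their values were seen. Marker lists were summed as CPM, so abundant genes weigh most in a sum.

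Alternatives were DESeq2 size factors in edgeR, no filter, DESeq2 1.42.0, only the compared libraries, a replicate block, a B cell marker covariate and leaving out each library. Added after seeing the data were summed counts of overlapping genes, a fit without Ripk3-/- Ptpn6ΔPMN replicate 2 and Ripk3-/- Mlkl-/- Ptpn6ΔPMN replicate 3, and the difference between the Casp8 comparisons. Deviations from group means were correlated between same-numbered libraries. Wherever 3 numbers were shared, at least 1 correlation was under 0.1, so numbers were not treated as pairs. Where 2 numbers were shared, both correlations were 0.25 for Casp8 deletion in Mlkl-/- Ptpn6ΔPMN. They were 0.212 and 0.191 for Ripk3-/- Mlkl-/- against wild type. In the other comparisons with 2 shared numbers, at least 1 correlation was negative. Simulated data with known changes were run first. In them genes varied independently and groups differed only in the altered genes, so recovery in the real libraries may differ. For Ptpn6 deletion in Mlkl-/- (15853 genes) the model found 45 of 100 genes altered 2-fold and 91 of 100 altered 4-fold, and called 7 others. For Ripk3-/- (15882 genes) it found 69 and 98 and called 10 others. For Ripk3-/- Mlkl-/- (15815 genes) it found 59 and 99 and called 8 others.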

Additional observations from a re-analysis of the deposited data

How the results depend on the processing

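No call of the 10 genes changed direction under any alternative. One fit, added after the values were seen, left out Ripk3-/- Ptpn6ΔPMN replicate 2 and Ripk3-/- Mlkl-/- Ptpn6ΔPMN replicate 3 (the 2 far libraries). These held the highest Jak3 of their groups, so leaving them out widens the gap to Mlkl-/- by construction, and what it adds supports no call. Among the 10, calls changed as follows. In Mlkl-/- 1 gene passed, against 2 by DESeq2, 2 with only the compared libraries and 3 without the 2 far libraries. For the difference between backgrounds, 0 became 1 without the 2 far libraries. For Casp8 in Mlkl-/- Ptpn6ΔPMN, 0 became 1 by DESeq2. Against wild type, 0 became 1 in Mlkl-/- with only the compared libraries, and in Ripk3-/- Mlkl-/- 0 became 1 by DESeq2, with only the compared libraries and with the B cell covariate. Leaving out each library gave 0 to 1 in Ripk3-/-, 0 to 1 in Mlkl-/- and 1 to 2 in the average. Over all genes tested, counts moved more. Ptpn6 deletion in Ripk3-/- gave 3 genes, against 20 with no filter, 38 by DESeq2 and 1 with only the compared libraries (3 to 156 without 1 library). In Mlkl-/- it gave 244, against 765 by DESeq2, 532 with only the compared libraries and 1146 without the far libraries (2 to 191). In Ripk3-/- Mlkl-/- it gave 1, against 3 with no filter, 4 by DESeq2 and 5 without the far libraries (1 to 18). The average gave 251, against 383 with no filter, 669 by DESeq2, 22 with only the compared libraries and 585 with the B cell covariate (7 to 1037). The difference between backgrounds gave 0 in edgeR (1053 at an unadjusted p under 0.05), against 1, 32, 1 and 394 with no filter, by DESeq2, with only the compared libraries and without the far libraries (0 to 34). Casp8 deletion gave 0 in both backgrounds. In Mlkl-/- Ptpn6ΔPMN this became 1 with no filter, 90 by DESeq2, 4 with only the compared libraries and 1 with the covariate (0 to 1), and in Ripk3-/- Mlkl-/- Ptpn6ΔPMN 1 by DESeq2 (0 to 1). Against wild type, Ripk3-/- gave 37, against 56, 99, 182 and 61 with no filter, by DESeq2, with only the compared libraries and with the covariate (23 to 38). Mlkl-/- gave 188, against 802, 891 and 296 by the last 3 of these (38 to 589), and Ripk3-/- Mlkl-/- 169, against 447, 833 and 401 (19 to 85). The replicate block gave 101 there and changed no call of the 10 genes. Scaled by plain library totals, the mean Stat5a level without deletion was 36.5 CPM, against 34.9. The cause of these moves was not tested. A group reduced to 1 library by this was taken to have the same spread as the rest.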

Other observations

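The single Casp8ΔPMN Ptpn6ΔPMN library, the one labelled as inflamed, had Ripk3 and Mlkl intact and is described without a test. It held Jak3 at 104 CPM, Stat3 at 530 CPM, Socs3 at 194 CPM and Cish at 17.0 CPM, each above all 11 libraries without Ptpn6 deletion. Jak2 stood at 90.2 CPM and Stat5a at 28.0 CPM, each the lowest of the 24 grouped libraries, while Jak1 at 570 CPM, Stat5b at 277 CPM and Socs1 at 11.3 CPM lay inside the range of the others. Tyk2 stood at 57.4 CPM. Its summed neutrophil markers were 144547 CPM and its B cell markers 557 CPM.

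In the library with conflicting labels, which its genotype label would put in Mlkl-/- Ptpn6ΔPMN (Jak3 at 113 and 164 CPM) and its title with Ripk3-/- Mlkl-/- (43.4 and 52.0 CPM), Jak3 stood at 48.7 CPM, Stat3 at 376 CPM, Socs3 at 102 CPM, Cish at 9.13 CPM and Jak1 at 634 CPM. Its Sh2b2 level was 26.7 CPM.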
